A study of Mus musculus with 24 samples.

Results

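The genes of the proteasome were followed across 4 groups of mouse hindlimb muscle. Members were all gene symbols formed from Psm, a letter from a to g and a number, without the inducible immunoproteasome subunits Psmb8, Psmb9 and Psmb10. This gave 45 of the 24016 symbols in the deposited table, and 43 of the 45 reached an RPKM of 1 or more in 6 or more libraries and were tested. RPKM is the number of reads per kilobase of exon and per M reads of the library. Poly(A) RNA had been sequenced on day 7 after the femoral artery was tied in 1 hindlimb of mice of C57BL/6 background. The groups were control adductor, adductor of mice with type 2 diabetes, control gastrocnemius and gastrocnemius of mice with type 2 diabetes, with 6 libraries each. Per the labels the adductor of the upper leg was normoxic and the gastrocnemius of the calf was ischemic, so the muscle and the ischemia cannot be told apart. All 24 libraries come from operated mice, and how diabetes was produced is not given in the labels. The labels name no animals, so each p measures only how far these samples spread, which may be technical.

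The proteasome is the main machine for selective protein breakdown in the cytoplasm and nucleus. Its core particle is a barrel of outer alpha rings, which gate the entrance, and inner beta rings, which hold the active sites. A regulatory particle caps the barrel: its base holds the ATPases that unfold the substrate, and its lid removes the ubiquitin chain that marked the substrate. Other activators and an inhibitor can bind the barrel ends, and dedicated assembly factors build the particle. In skeletal muscle the system is known for removing contractile proteins when muscle wastes or is rebuilt.

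Averaged over the libraries, core and regulatory subunits were abundant, while assembly factors and Psmf1 were scarce. The highest mean RPKM over the 24 libraries was that of Psmb7, which carries the trypsin-like active site, at 125. Psmb4, a structural beta subunit, had 119, and Psmd8, a lid subunit, 117. The order depended on the group and on the library set. With the sets joined, Psmb7 had the highest mean in both adductor groups (123 and 156). Psmb4 had it in both gastrocnemius groups (145 and 138), where Psmb7 had 106 and 114. In the first set of gastrocnemius Psmb5 led, at 128.6 in control and 153.6 in diabetic mice, and Psmb7 stood above Psmb4. In the second set Psmd8 led in control adductor (135) and diabetic gastrocnemius (205). Psmb7 led in the other adductor sets and Psmb4 in the second set of control gastrocnemius. The lowest tested members were Psmf1, the proteasome inhibitor subunit, at 4.74, and the base assembly factors Psmd10 at 6.77 and Psmd9 at 7.63. Within the beta ring the mean levels per length over all 24 libraries lay within 1.65-fold of each other, from Psmb2 at 75.5 RPKM to Psmb7. The ring was less even within a library set of control adductor. It ran from Psmb2 at 35.9 to Psmb7 at 123 RPKM in the first set, and from Psmb3 at 34.6 to Psmb7 at 123 in the second. The alpha ring spanned 2.85-fold, from Psma5 at 32.7 to Psma6 at 93.0 RPKM. In these means over all 24 libraries the lid was the most uneven of these groups. It spanned 5.24-fold between Psmd14, the deubiquitinating enzyme of the lid, at 22.4 RPKM and Psmd8. That ranking did not hold in every group and library set. In the second set of control adductor the alpha ring ran from Psma3 at 6.20 RPKM to Psma6 at 123. The lid ran from Psmd14 at 19.7 to Psmd8 at 135 there. The 2 members that were not tested were Psma8, an alpha subunit known from testis, and Psmb11, a beta subunit known from thymus. Their highest RPKM in any library were 0.387 and 0.406, and both were listed at 0 in at least 1 library.

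The 24 libraries formed 2 technical sets without a label of their own. Gapdh marked them, with an RPKM above 100 in 14 libraries and below it in 10. The first set holds samples 1 to 3 of each control group and 1 to 4 of each diabetic group, and the second holds the rest. Totals were 12 to 15.6 M reads in the first set and 7.13 to 11.8 M in the second. The protocol and the design text name different Illumina sequencers, and a part of the sequencer in these sets was not tested. Controls are split 3 and 3 between the sets and diabetic samples 4 and 2, so a gene that differs between the sets also shifts a diabetes comparison over all libraries. The 20 most abundant genes took 32.8% to 45.5% of summed RPKM in the adductor libraries and 15.9% to 31.4% in the gastrocnemius libraries.

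Proteasome genes differed widely between these sets. Averaged over the 4 groups, Psma3 was lower in the second set by a log2 difference of -3.19 and Psme2 by -2.44, while Psma6 stood at +1.05. In control adductor, Psma3 had 37.5 to 46.4 RPKM in the 3 libraries of the first set and 5.49 to 6.76 in the 3 of the second. The alpha subunit Psma6 went the other way in the same libraries, with 42.4 to 56.1 RPKM in the first set and 119 to 126 in the second. For both genes the sets did not overlap. Sequence sharing was then read from the mouse transcripts (GENCODE M21), as the percentage of a member's 31-base words that also occur in a transcript of another gene, on either strand. Some of these transcripts were longer than the deposited ones, with 2846 beside 1419 bases for Psma3 and 2848 beside 1742 for Psmd11. The share therefore need not hold for the bases that were counted. This share was 0 for 20 members and at least 20% for 12. Of the 10 members lower in the second set in every group, 9 were among these 12: Psma3, Psme2, Psma5, Psmd11, Psmb3, Psmb5, Psmd2, Psma4 and Psme1. The tenth, Psme4, shared none. Only 1 of the 16 members higher in the second set in every group, Psmg3, was among the 12. The median set difference was -0.80 for the 12 members and 0.42 for the other 31, with a Spearman correlation of -0.526 over the 43 genes, which share the same 24 libraries. Gapdh, whose low values define the second set, itself had 84.1% shared words. The sets were thus cut on a gene of this kind, and the sharing pattern is not independent of that cut. How reads that match several places were counted is not given in the sources used here, and its part in the set difference was not tested. Values of the 12 members are therefore uncertain, above all those of Psmb5 with 74.0% shared words, Psmb3 with 66.9%, Psma5 with 66.5% and Psme2 with 66.2%. The 12 also include Psmc1 with 39.65% and Psmb7 with 33.45%. For Psmb7 the other gene with most of these words was Nek6. The measure does not part a copy elsewhere from a gene annotated on the same bases. A shared word therefore need not mean that a read matched several places.

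**Figure D1:**
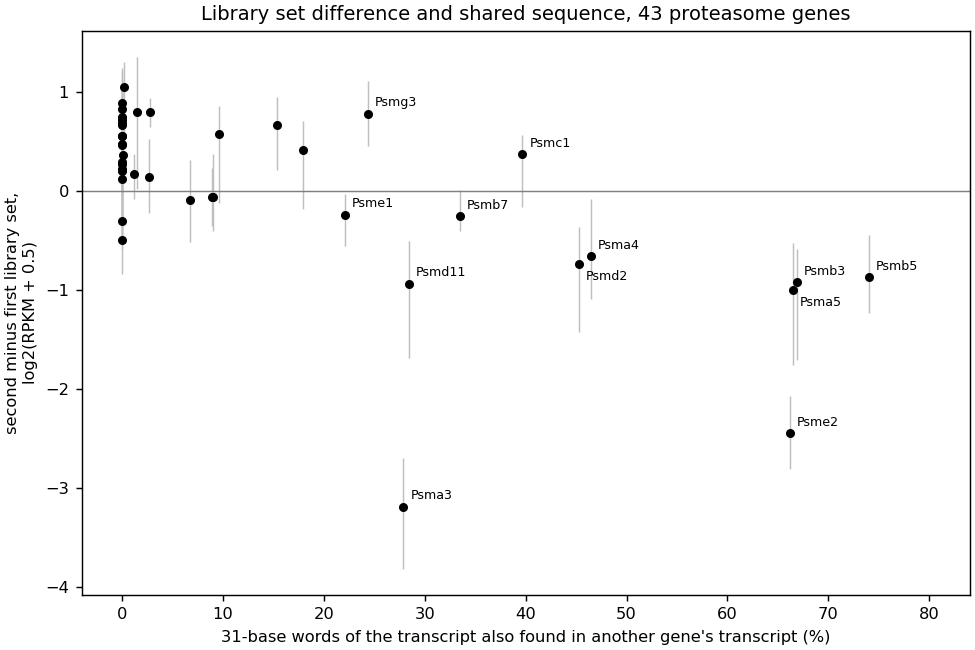
Difference between the library sets (second minus first, log2(RPKM + 0.5), mean over the 4 groups as a point and the lowest and highest group as a line) against the percentage of 31-base words of the transcript found in another gene's transcript, for the 43 tested proteasome genes. The genes at least 20% shared are named, and Psma3 and Psme2 sit lowest at -3.19 and -2.44.

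Summed over its 16 genes, the barely detected Psma8 and Psmb11 included, the core particle was more abundant in the ischemic gastrocnemius than in the adductor on the RPKM scale. The 6 control adductor libraries ran from 598 to 961 summed RPKM with a median of 842, and the 6 control gastrocnemius libraries from 980 to 1437 with a median of 1243. Those groups did not overlap. In diabetic mice the adductor ran from 721 to 1831 with a median of 911 and the gastrocnemius from 988 to 1643 with a median of 1224, and these groups overlapped, with diabetic adductor 1 (1831) and 2 (1052) above the lowest gastrocnemius library. The 17 genes of the regulatory particle gave medians of 874 and 1118 in control adductor and gastrocnemius, and 1064 and 1126 in the diabetic muscles, with overlap in both. The ratio of summed core to regulatory RPKM was 0.96 ± 0.07 in control adductor, 0.91 ± 0.08 in diabetic adductor, 1.08 ± 0.07 in control gastrocnemius and 1.13 ± 0.14 in diabetic gastrocnemius (SD, n = 6).

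**Figure D2:**
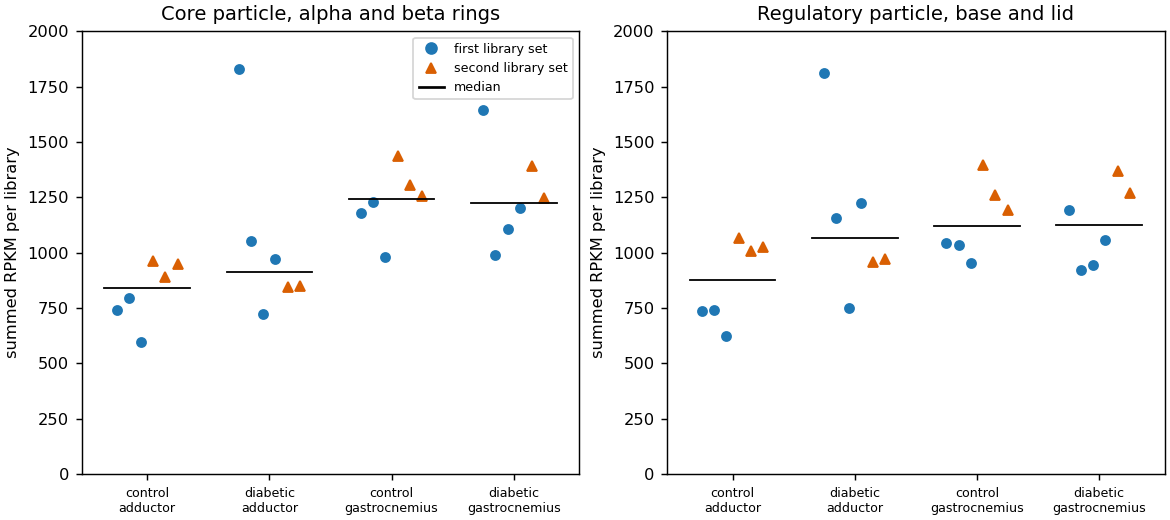
Summed RPKM of the 16 core particle genes (left) and of the 17 regulatory particle genes (right) in each of the 24 libraries, by group, with the library set as colour and shape and the group median as a line. Diabetic adductor 1 stands at 1831 and 1811, above every other adductor library in both panels.

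The muscle comparison asks how the ischemic calf differs from the normoxic upper leg. In control mice 24 of the 43 tested members were higher in gastrocnemius and 1, Psme4, was lower (limma with Benjamini-Hochberg adjustment, called at an adjusted p under 0.05). Among all 12382 tested genes, 63.1% were called, 54.4% higher and 8.7% lower. The median log2 difference of the members was 0.64, beside 0.66 for all tested genes. In diabetic mice 10 members were higher and 2, Psme4 and Psmd6, lower, while 56.9% of all genes were called, 48.1% higher and 8.83% lower. There the member median was 0.36, beside 0.55 for all genes. Leaving out 1 library gave 0.195 (without diabetic adductor 3, beside 0.53) to 0.46 (without diabetic adductor 1, beside 0.56). With the sample number as a block the diabetic counts became 21 higher and 4 lower, beside 56.7% and 11.9% of all genes. Each number of a mouse group lies in the same library set in both muscles. The block therefore also takes out a set difference common to the muscles, and its calls cannot be credited to pairing alone. In the second library set alone the diabetic counts were 21 higher and 2 lower, beside 35.2% and 13.1%. Without the library diabetic adductor 1 and with terms for the library set they were 24 higher and 1 lower, beside 60.4% and 9.6%. Every library of 1 muscle lay above every library of the other for 6 members in control mice (33.3% of all genes) and 2 in diabetic mice (29%), and below for Psme4 in both (3% and 2.33%).

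These directions depended on the scale. When each library was instead divided by the median ratio of its genes to the average library (median-of-ratios scaling), the median of all genes moved to -0.02 in control mice and -0.04 in diabetic mice. On that scale 0 members were higher and 7 lower in control mice, and 0 were higher and 15 lower in diabetic mice. All tested genes then split into 28.4% higher and 26.5% lower in control mice, and 27.4% and 26.2% in diabetic mice. A member's rise on the RPKM scale is thus a rise against the library total, and its place against the median gene is given beside it below. The call of Psme4 held on both scales in both mouse groups, and that of Psmd6 on both scales in diabetic mice.

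**Figure D3:**
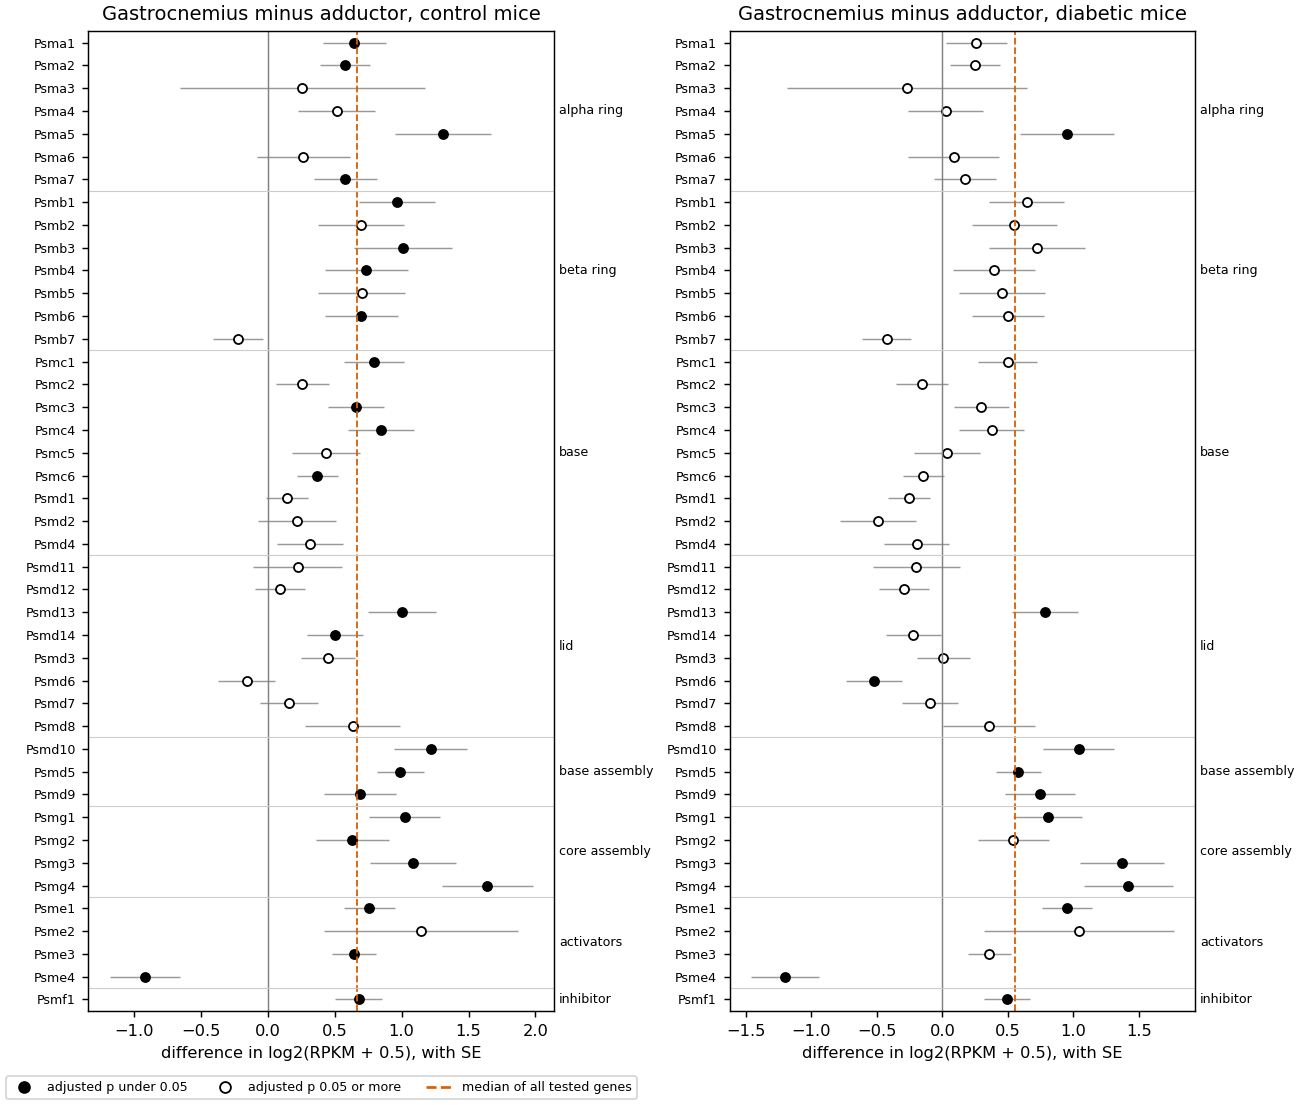
Gastrocnemius minus adductor difference in log2(RPKM + 0.5) with its standard error from limma for the 43 tested proteasome genes, ordered by role, in control mice (left) and diabetic mice (right). Filled points passed an adjusted p of 0.05, and the dashed line is the median of all 12382 tested genes (0.66 and 0.55), which most lid and base genes lie below.

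In the alpha ring 4 of 7 tested genes were higher in control gastrocnemius (Psma1, Psma2, Psma5 and Psma7), with a ring median of 0.58. In the beta ring 4 of 7 were higher (Psmb1, Psmb3, Psmb4 and Psmb6), with a median of 0.70. Each ring's share of 57.1% lay near the 54.4% of all genes called higher. Psmb4 had 48.1 to 122 RPKM with a median of 89.0 in control adductor and 83.9 to 203 with a median of 145 in gastrocnemius. The groups overlapped, and the log2 difference was 0.73 ± 0.31 (adjusted p = 0.0436 in limma). In diabetic mice Psma5, an alpha subunit, was the only called gene of the rings, at 0.95 ± 0.36 (adjusted p = 0.0274 in limma), with 66.5% shared words. Of all genes, 48.1% were called higher there.

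The 3 beta subunits with active sites did not move as 1 group. Of their words 74.0% were shared in Psmb5, 33.45% in Psmb7 and 15.36% in Psmb6. Psmb5 and Psmb7 are thus among the 12 members with uncertain values. Psmb5, with the chymotrypsin-like site, had 49.2 to 95.6 RPKM with a median of 57.5 in control adductor and 76.4 to 139 with a median of 103 in gastrocnemius. Its difference was 0.70 ± 0.33 and did not pass (adjusted p = 0.0652 in limma). Psmb6, with the caspase-like site, had 44.7 to 94.0 RPKM with a median of 71.8 in adductor and 72.9 to 166 with a median of 110 in gastrocnemius. Its groups overlapped, and it passed at 0.70 ± 0.27 (adjusted p = 0.0295 in limma).
Psmb7, with the trypsin-like site, had 105 to 137 RPKM with a median of 127 in control adductor and 84.4 to 135 with a median of 106 in gastrocnemius, at -0.22 ± 0.19 (adjusted p = 0.309 in limma). In diabetic mice Psmb7 ran from 117 to 252 with a median of 142 in adductor and from 73.5 to 139 with a median of 115 in gastrocnemius, at -0.43 ± 0.19 (adjusted p = 0.058 in limma). On the median-of-ratios scale Psmb7 passed as lower in both mouse groups, by -1.02 and -1.10. Psmb5 and Psmb6 in diabetic mice were at 0.45 ± 0.33 and 0.50 ± 0.27, and neither passed (adjusted p = 0.246 and 0.122 in limma). With the sample number as a block all 3 active-site genes passed in diabetic mice, Psmb7 as lower (adjusted p = 0.0219, 0.00881 and 0.00653 for Psmb7, Psmb5 and Psmb6 in limma), and Psmb5 passed in control mice (3.14e-04). Psmb4 in diabetic mice was at 0.39 ± 0.31 and passed with the block as well (adjusted p = 0.0379 in limma).

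Over all libraries the regulatory particle lay below the median gene in both muscle comparisons. In control mice 6 of its 17 genes were higher (54.4% of all genes), with a median of 0.37. These were the ATPases Psmc1, Psmc3, Psmc4 and Psmc6 of the base, and Psmd13 and Psmd14 of the lid. In diabetic mice 1 was higher (Psmd13) and 1 lower (Psmd6), beside 48.1% and 8.83% of all genes, with a median of -0.15. On the median-of-ratios scale 5 of 17 were lower in control mice (26.5% of all genes) and 11 of 17 in diabetic mice (26.2%). The diabetic median was -0.82, beside -0.35 and 3 of 14 lower for the core particle. Within the library sets the control medians were 0.42 and 0.25, beside 0.77 and 0.56 for all genes. In diabetic mice they parted: -0.18 beside 0.67 for all genes in the first set, and 0.36 beside 0.32 in the second.

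Psmd13, a lid subunit, was the lid gene with the largest rise in control mice. Its RPKM ran from 21.4 to 42.1 with a median of 33.0 in control adductor and from 45.2 to 90.6 with a median of 63.8 in gastrocnemius. These groups did not overlap. The difference was 1.003 ± 0.25 in control mice (adjusted p = 0.00146 in limma) and 0.78 ± 0.25 in diabetic mice (adjusted p = 0.0107 in limma), where the groups overlapped.
Psmd6, another lid subunit, ran from 61.8 to 93.0 RPKM with a median of 76.0 in diabetic adductor and from 31.7 to 81.97 with a median of 54.0 in diabetic gastrocnemius. It fell by 0.52 on the log2 scale with a standard error of 0.21 (adjusted p = 0.0408 in limma), although the groups overlapped. In control mice Psmd6 was at -0.16 ± 0.21 and did not pass (adjusted p = 0.528 in limma). Psmd6 passed in 15 of the 24 fits that left out 1 library, and not with terms for the library set, where its adjusted p was 0.102.

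Of the other base and lid genes described, Psmc4 is an ATPase, Psmd4 a ubiquitin receptor and Psmd11 a lid scaffold. Psmc4 rose in control mice, from 22.0 to 47.4 RPKM with a median of 34.6 in adductor to 40.4 to 83.9 with a median of 61.2 in gastrocnemius, by 0.85 ± 0.25 (adjusted p = 0.00487 in limma). The groups overlapped at their ends. Psmd4 was at 0.31 ± 0.25 in control mice and -0.20 ± 0.25 in diabetic mice, and Psmd11 at 0.22 ± 0.33 and -0.20 ± 0.33, none of which passed.
Psmd14 had 12.3 to 21.5 RPKM with a median of 17.6 in control adductor and 15.8 to 31.6 with a median of 26.7 in gastrocnemius. Its groups overlapped, and it rose by 0.50 ± 0.21 in control mice (adjusted p = 0.0419 in limma). In diabetic mice it was at -0.22 ± 0.21 and did not pass (adjusted p = 0.386 in limma). Psmd8, the most abundant lid gene, was at 0.63 ± 0.35 and 0.36 ± 0.35 and passed in neither. With the block Psmd8 passed in control mice and Psmc4 (0.38 ± 0.25 without it) in diabetic mice, with adjusted p = 0.0166 and 0.0481 in limma.

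All 3 assembly factors of the base (Psmd5, Psmd9 and Psmd10) were higher in gastrocnemius in both mouse groups, with medians of 0.99 and 0.74. Of all genes, 54.4% and 48.1% were higher. Psmd5 had 4.09 to 7.80 RPKM with a median of 7.10 in control adductor and 8.93 to 15.3 with a median of 14.3 in control gastrocnemius. In diabetic mice it had 5.87 to 8.52 with a median of 7.55 and 8.70 to 15.0 with a median of 11.7. Every gastrocnemius library lay above every adductor library in both. The rise was 0.99 ± 0.17 in control mice and 0.58 ± 0.17 in diabetic mice (adjusted p = 3.38e-05 and 0.00638 in limma).
Psmd10, which also binds the retinoblastoma protein, rose from 1.97 to 7.86 RPKM with a median of 4.13 in control adductor to 5.70 to 15.2 with a median of 10.4, by 1.22 ± 0.27 (adjusted p = 4.66e-04 in limma). In diabetic mice Psmd10 rose by 1.04 ± 0.27 (adjusted p = 0.00224 in limma). Psmd9 rose by 0.69 ± 0.27 and 0.74 ± 0.27 (adjusted p = 0.029 and 0.0212 in limma). The ranges of Psmd10 and Psmd9 overlapped between the muscles in both mouse groups.

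Of the 4 assembly factors of the core, which pair up to place the alpha subunits, 4 were higher in control gastrocnemius (54.4% of all genes). In diabetic gastrocnemius 3 were higher (48.1%), and the medians were 1.05 and 1.09. Psmg4 had 2.68 to 8.77 RPKM with a median of 6.31 in control adductor and 9.32 to 32.9 with a median of 21.6 in control gastrocnemius, and the groups did not overlap. It rose by 1.64 ± 0.34 (adjusted p = 2.29e-04 in limma), the largest log2 difference of any tested member in control mice. In diabetic mice it had 4.58 to 10.4 with a median of 5.88 and 9.87 to 37.2 with a median of 18.7, overlapped, and rose by 1.42 ± 0.34 (adjusted p = 0.00111 in limma).
Psmg3 rose by 1.37 ± 0.32 in diabetic mice, from 2.86 to 6.79 RPKM with a median of 3.62 in adductor to 6.14 to 23.2 with a median of 10.6 (adjusted p = 8.56e-04 in limma), and 24.4% of its words were shared. Psmg1 rose by 1.02 ± 0.27 in control mice and 0.80 ± 0.27 in diabetic mice (adjusted p = 0.00185 and 0.0126 in limma). Psmg2, the partner of Psmg1, lay slightly below the median gene in both, at 0.63 ± 0.27 and 0.54 ± 0.27 (adjusted p = 0.0467 and 0.0945 in limma). With the block it passed in diabetic mice too (adjusted p = 8.17e-04 in limma). On the median-of-ratios scale the core assembly factors kept positive medians of 0.30 and 0.46 and the base assembly factors 0.23 and 0.12, although Psmd9 and Psmg2 were negative in control mice and Psmd5 and Psmg2 in diabetic mice, and none of these 7 genes passed on that scale.

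The activators moved in opposite directions. Psme4, a large ATP-independent activator at chr11:30671775-30780361 of mm9 (plus strand), was the member lower in gastrocnemius in both mouse groups. It had 28.1 to 43.2 RPKM with a median of 32.9 in control adductor and 11.0 to 28.1 with a median of 17.7 in control gastrocnemius. In diabetic mice it had 32.4 to 58.5 with a median of 38.0 in adductor and 9.14 to 29.1 with a median of 18.7 in gastrocnemius. The groups did not overlap in either, although in control mice the lowest adductor and the highest gastrocnemius library lay side by side. Psme4 fell by 0.92 on the log2 scale in control mice and by 1.203 in diabetic mice, each with a standard error of 0.26 (adjusted p = 0.00377 and 4.2e-04 in limma), and passed in all 24 fits that left out 1 library. With median-of-ratios scaling the falls were -1.71 and -1.87. In the first library set alone the control difference was -0.59 and did not pass (adjusted p = 0.137 in limma), and in the second it was -1.26 (adjusted p = 7.77e-04 in limma).

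Psme1, a subunit of the interferon-inducible activator ring, rose by 0.76 ± 0.19 in control mice and 0.95 ± 0.19 in diabetic mice (adjusted p = 0.00144 and 1.94e-04 in limma). Its RPKM was 17.3 to 31.01 with a median of 20.3 in control adductor and 29.8 to 50.8 with a median of 34.9 in control gastrocnemius, which overlapped at 1 adductor library. In diabetic mice it was 17.2 to 23.4 with a median of 19.3 and 27.3 to 60.6 with a median of 35.3, without overlap. Its partner Psme2 was at 1.14 ± 0.73 and 1.04 ± 0.73 over all libraries, where it did not pass (adjusted p = 0.176 and 0.23 in limma). Psme2 differed so much between the library sets that terms for the set changed its error, giving 1.38 ± 0.27 and 1.202 ± 0.24 (adjusted p = 9.74e-05 and 1.45e-04 in limma). The sample number as a block had the same effect on the call (adjusted p = 3.25e-05 and 9.16e-05 in limma).
Psme3, the nuclear member of that family, rose by 0.64 ± 0.17 in control mice, from 13.6 to 22.5 RPKM with a median of 17.8 to 20.3 to 33.0 with a median of 27.7 (adjusted p = 0.0017 in limma), with overlap. In diabetic mice Psme3 was at 0.36 ± 0.17 and did not pass (adjusted p = 0.0679 in limma, 0.0397 with the block). The ratio of Psme4 to Psme3 RPKM was 2.03 ± 0.72 in control adductor and 0.70 ± 0.37 in control gastrocnemius, and 2.35 ± 0.99 and 0.81 ± 0.44 in the diabetic muscles (SD, n = 6). The inhibitor Psmf1 rose by 0.68 ± 0.18 and 0.49 ± 0.18 (adjusted p = 0.00197 and 0.0205 in limma), from medians of 3.68 and 3.74 RPKM in adductor to 6.48 and 6.29 in gastrocnemius. On the median-of-ratios scale Psme1 was at -0.03 and 0.28, Psme3 at -0.14 and -0.30 and Psmf1 at -0.04 and -0.12, and none passed.

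**Figure D4:**
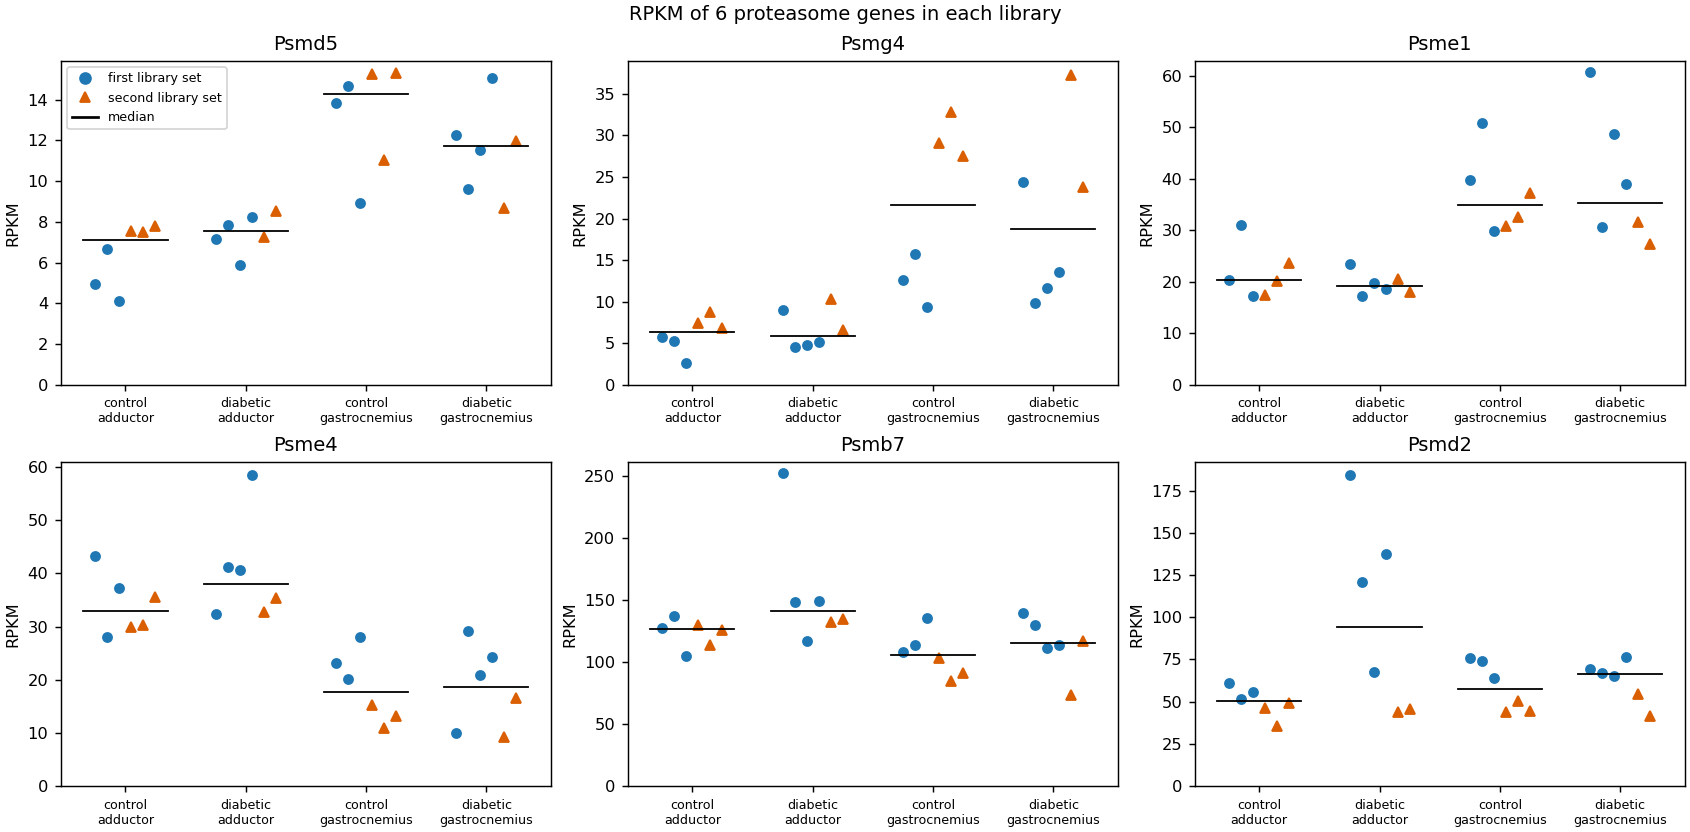
RPKM of 6 proteasome genes in each of the 24 libraries, by group, with the library set as colour and shape and the group median as a line. Psmd5 lies higher in every gastrocnemius library than in the adductor libraries of the same mouse group, Psme4 lies lower, and Psmd2 reaches 184 in diabetic adductor 1.

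The inducible subunits that replace the active sites in the immunoproteasome, Psmb8, Psmb9 and Psmb10, are not counted among the 45. All 3 were higher in gastrocnemius in both mouse groups on both scales, with medians of 1.68 and 1.97 on the RPKM scale and 0.94 and 1.32 on the median-of-ratios scale. The ratio of Psmb10 RPKM to that of Psmb7, the subunit it replaces, was 0.04 ± 0.01 in control adductor and 0.17 ± 0.05 in control gastrocnemius (SD, n = 6). It ran from 0.0316 to 0.0549 in the adductor and from 0.0833 to 0.239 in the gastrocnemius, without overlap. For Psmb8 to Psmb5 the ratios were 0.08 ± 0.02 and 0.22 ± 0.08, with ranges of 0.0423 to 0.115 and 0.11 to 0.318 that overlapped. For Psmb9 to Psmb6 they were 0.06 ± 0.03 and 0.13 ± 0.07, with ranges of 0.0318 to 0.117 and 0.0662 to 0.26 that overlapped as well. Macrophage markers were higher in gastrocnemius for 7 of 7 tested genes in both mouse groups, with a summed RPKM of 47.4 to 333 in control adductor and 494 to 1985 in control gastrocnemius. In diabetic mice the sums were 83.4 to 135 and 635 to 1744. Markers of regenerating muscle were higher for 5 of 5, of fibroblasts for 6 of 6 and of cycling cells for 4 of 4, while 3 of 6 muscle fibre genes were lower in control mice and 2 of 6 in diabetic mice. Of all genes, 54.4% and 48.1% were higher and 8.7% and 8.83% lower on the RPKM scale (control and diabetic mice). On the median-of-ratios scale 28.4% and 27.4% were higher. No marker in the table was at 0 in all libraries of a group. The part of these cells in the proteasome differences was not tested, and in bulk samples fewer cells of a type and less RNA per cell cannot be told apart.

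Other genes around the proteasome were counted by list on the RPKM scale. There 54.4% and 48.1% of all genes were higher and 8.7% and 8.83% lower (control and diabetic mice). On the median-of-ratios scale 28.4% and 27.4% were higher and 26.5% and 26.2% lower. Muscle ubiquitin ligases split: 2 of 12 were higher and 5 lower in each mouse group, with medians of -0.03 and 0.10, and on the median-of-ratios scale 0 were higher and 7 lower in each. Trim54, a ligase of the sarcomere, fell by 1.65 and 1.44, and Fbxo32 (atrogin-1), which is induced in wasting muscle, by 1.62 and 2.42 (largest adjusted p = 5.66e-04 in limma over these 4 values). Among 11 tested proteasome-bound factors, 2 were higher and 2 lower in each mouse group. Zfand2a, an arsenite-inducible partner of the regulatory particle, rose by 1.21 ± 0.17 and 1.04 ± 0.17, and Zfand5, a zinc finger activator of the proteasome, fell by 0.97 and 1.10. The proteasome scaffold AI314180 fell by 0.84 and 1.16. These 5 genes passed in the same direction on the median-of-ratios scale. Of 6 regulators of proteasome genes, 1 was higher and 1 lower in control mice, and 0 were higher and 3 lower in diabetic mice. Nfe2l1, the factor that raises proteasome subunits when the proteasome is inhibited, had 91.6 to 145 RPKM with a median of 107 in control adductor and 73.4 to 120 with a median of 86.9 in gastrocnemius, at -0.28 ± 0.20, which did not pass. In diabetic mice it had 96.3 to 250 with a median of 151 and 71.0 to 110 with a median of 81.0, and fell by 0.85 with a standard error of 0.20 (adjusted p = 9.07e-04 in limma).

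Since members of a complex may share promoter elements, the 250 bases before each start in RefSeq (GRCm38.p6) were searched for the core of the antioxidant response element, which Nfe2l1 and Nfe2l2 are known to bind (TGACNNNGC, both strands). Of the 45 members, 37 matched a promoter in the table. The motif was found in 5 of these (13.51%), beside 11.52% of all 27025 genes. The 5 sites with up to 20 bases on each side are printed here because they are all the matches among the members, with the motif in capitals. They are read in the direction of the gene, 5′ to 3′, and a motif on the other strand is written as GCNNNGTCA.
Psmb5, chr14:54618014-54618062, minus strand: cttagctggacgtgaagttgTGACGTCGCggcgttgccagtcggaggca
Psmb6, chr11:70525328-70525356, plus strand: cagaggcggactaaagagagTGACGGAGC
Psmc6, chr14:45329577-45329625, plus strand: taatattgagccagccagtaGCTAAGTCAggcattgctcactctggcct
Psmd12, chr11:107479278-107479309, plus strand: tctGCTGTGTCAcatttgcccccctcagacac
Psmd9, chr5:123228139-123228187, plus strand: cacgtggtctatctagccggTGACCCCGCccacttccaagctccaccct
They belong to 2 beta, 1 base, 1 lid and 1 base assembly gene, and none of the 7 alpha ring promoters held the motif. A CCAAT box (CCAAT or ATTGG) was found in 13 of the 37 members (35.14%), beside 37.49% of all genes. Both shares lay near those of all promoters.

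The diabetes comparison in the normoxic adductor gave no call among the members: 0 of 43 passed in limma, beside 0.0323% of all genes, and 5 had an unadjusted p under 0.05 (2.74% of all genes). On the RPKM scale 38 of 43 members had a positive difference (57% of all genes), with a median of 0.25 beside 0.04 for all genes. Without diabetic adductor 1 the median was 0.15, beside 0.05. All 14 tested core genes and all 17 regulatory genes were positive, with medians of 0.31 and 0.39. Assembly factors of the base (1 of 3 positive) and of the core (2 of 4) had medians of -0.02 and 0.04. Median-of-ratios scaling gave 37 of 43 positive and a median of 0.20, with no share of all genes given here. Markers of red blood cells moved the other way: 0 of 4 tested genes were positive, with a median of -1.48, 3 unadjusted p under 0.05 and 0 calls. Their summed RPKM was 78.6 to 943 in control adductor and 32.2 to 159 in diabetic adductor, and their part in the proteasome differences was not tested.

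The members with the smallest p were Psmd2 and Psmd1, the large base subunits that bind incoming substrates and shuttle factors, and the lid subunit Psmd3. Psmd2 had 35.8 to 60.9 RPKM with a median of 50.1 in control adductor and 43.6 to 184 with a median of 94.2 in diabetic adductor. The groups overlapped, and the difference was 0.81 ± 0.29 (unadjusted p = 0.0108, adjusted p = 1 in limma). In the first set alone the diabetic libraries had 184, 121, 67.4 and 138 RPKM and the control libraries 60.9, 51.2 and 55.6. In the second set they had 43.6 and 45.3 beside 46.2, 35.8 and 49.0. The diabetic libraries were thus all above the controls in the first set and within their range in the second, and 45.3% of the words of Psmd2 were shared.
Psmd1, with 8.92% of words shared, had 94.5, 67.5, 44.1 and 71.8 RPKM in the diabetic libraries of the first set beside 43.1, 42.6 and 42.3 in the controls. In the second set it had 50.8 and 54.4 beside 51.8, 45.7 and 53.7. Over all libraries its difference was 0.41 ± 0.16 (unadjusted p = 0.0155, adjusted p = 1 in limma). For Psmd1 too, only the first set had all diabetic libraries above the controls. Psmd3 was at 0.45 ± 0.20 (unadjusted p = 0.0373, adjusted p = 1 in limma).

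Across the members the library sets disagreed. In the first set alone, 42 of 43 members were positive (48.5% of all genes), with a median of 0.55 beside -0.01 for all genes, and 23 had an unadjusted p under 0.05 (5.45% of all genes). None passed adjustment, beside 0.00808% of all genes. Every diabetic library lay above every control library for 12 of the 43 members, beside 5.28% of all genes, and below for 0, beside 3.69%. In the second set alone, 14 of 43 were positive (65.7% of all genes), with a median of -0.08 beside 0.11 for all genes. There 0 members had an unadjusted p under 0.05 (5.98% of all genes) and 0 passed adjustment (0.113%). Both diabetic libraries lay above all controls for 5 members and below all for 15, beside 21.9% and 6.78% of all genes. With terms for the library set, 41 of 43 were positive (59.9% of all genes) with a median of 0.28, 12 had an unadjusted p under 0.05 (5.16%) and 0 passed adjustment (0.0404%). The diabetes effects of the sets were not tested against each other.

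**Figure D5:**
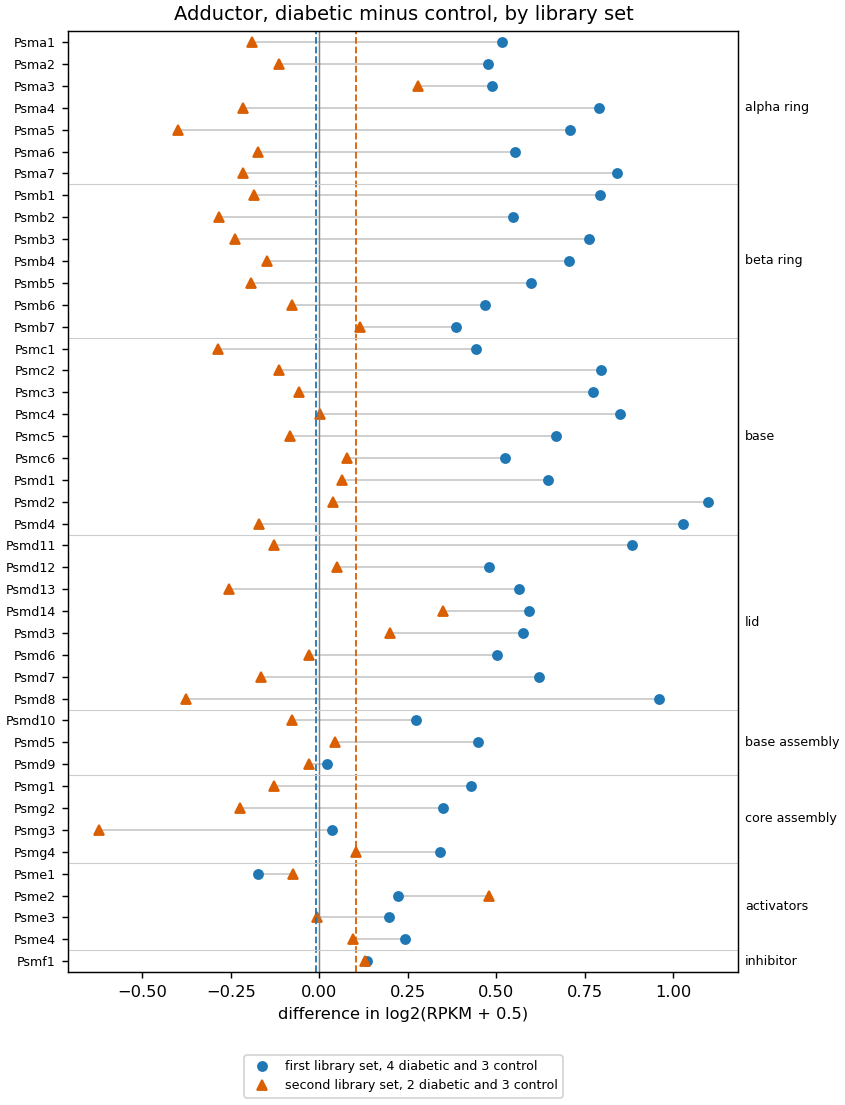
Diabetic minus control difference in adductor, log2(RPKM + 0.5), for the 43 tested proteasome genes in the first library set (circles, 4 diabetic and 3 control libraries) and the second (triangles, 2 and 3), with the median of all tested genes in each set as a dashed line. Circles lie right of 0 for 42 genes and triangles for 14.

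Part of the first set's pattern lay in 1 library. Diabetic adductor 1 had a summed core RPKM of 1831, beside 721 to 1052 in the other diabetic adductor libraries of that set and 598 to 794 in its controls. It held the highest of the 12 adductor values for 27 of 43 members (62.8%), beside 12.2% of all genes. Its sums for muscle ubiquitin ligases (850 RPKM), the p97 unfoldase list (368) and regulators of proteasome genes (326) were also the highest of any adductor library. Without it, the first set gave 40 of 43 positive (51.3% of all genes), a median of 0.37 and 12 unadjusted p under 0.05 (3.07%), of which 11 belonged to the regulatory particle and 1 to the core. With terms for the set and without it, 39 were positive (61.6%), the median was 0.17, and 4 had an unadjusted p under 0.05 (4.14%).

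In the ischemic gastrocnemius no member passed between diabetic and control mice (0 of 43 in limma, beside 0.00808% of all genes), and 0 had an unadjusted p under 0.05 (1.26% of all genes). On the RPKM scale 15 of 43 were positive (36.7% of all genes), with a median of -0.04 beside -0.06 for all genes, and core and regulatory medians were -0.02 and -0.04. Red blood cell markers were again lower, with 0 of 4 positive, a median of -2.20, 4 unadjusted p under 0.05 and 0 calls, and a summed RPKM of 63.9 to 431 in control and 12.3 to 120 in diabetic gastrocnemius. On the median-of-ratios scale 23 were positive, with a median of 0.02, again with no share of all genes given. The smallest p values were those of Psme3 at -0.25 ± 0.17, Psmc6 at -0.20 ± 0.15 and Psmd14 at -0.26 ± 0.21 (unadjusted p = 0.145, 0.21 and 0.226 in limma). Psme3 had 20.3 to 33.0 RPKM with a median of 27.7 in control gastrocnemius and 18.4 to 26.4 with a median of 24.3 in diabetic gastrocnemius, and the groups overlapped. Sets alone gave medians of 0.05 and -0.05.

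The difference of these diabetes effects, gastrocnemius minus adductor, was tested for every gene, and 0 of 43 members passed in limma, beside 0% of all genes. Of the members 3 were positive (32.5% of all genes), with a median of -0.32 beside -0.11 for all genes (-0.18 beside -0.12 without diabetic adductor 1), and 2 had an unadjusted p under 0.05 (1.24%). These were Psmd14 at -0.72 ± 0.30 and the ATPase Psmc6 at -0.51 ± 0.22 (unadjusted p = 0.0234 and 0.0273, adjusted p = 0.9998 for both in limma). Psmd1 followed at -0.40 ± 0.22. Psmd14 had medians of 17.6 and 24.9 RPKM in control and diabetic adductor and 26.7 and 22.4 in control and diabetic gastrocnemius, with overlap in both muscles. The sets gave -0.80 and -0.84 for Psmd14, and medians over the members of -0.55 and -0.06. On the median-of-ratios scale the median was -0.20 over all libraries, -0.47 in the first set and 0.23 in the second, so the sets differed in sign.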

How the data were processed

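The deposited values are RPKM per RefSeq transcript of mm9, computed by the authors with HOMER, per the file headers. Per the submitters' processing notes, TopHat and HOMER were the tools and mm9 the build, without versions. The header totals returned whole reads within 0.01 for 99.96% of RPKM values above 0, so the voom alternative used recovered reads. The command in the header names no strand option. Depth was 7.13 to 15.6 M reads per library.

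Each of 24016 symbols was represented by its transcript of highest mean RPKM (the 45 members have 51 transcripts). Values were fitted as log2(RPKM + 0.5) with limma 3.58.1 under R 4.3.3 (a mean for each of the 4 groups, trend on average level) for 12382 genes, with Benjamini-Hochberg adjustment over all genes of a contrast. The members, gene lists and tests were chosen with earlier results of these data known. Described members were those with the smallest p in a contrast, the most and least abundant and 13 listed genes. Others (Psma3, Psma5, Psma6, Psmg2) were added after their values were seen. Alternatives were other pseudocounts, no filter, median-of-ratios scaling, library-set terms, each set alone, voom, summed transcripts and leaving out each library. Scripts were tested on simulated data. Same-numbered muscles of a mouse group deviated together (r of 0.25 to 0.74 across genes over 12 pairs, and -0.09 to 0.63 within the library sets), so the number was also fitted as a block (6 libraries correlated best with their own number). The pairing rests on this check and not on the labels. Promoters are RefSeq's, GRCm38.p6; figures were drawn with matplotlib.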

Additional observations from a re-analysis of the deposited data

Results flagged for a closer look

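Among 172 groups of 6 libraries (43 genes in 4 groups), 9 held a library whose gap to its neighbour exceeded Dixon's 95% critical value. Chance gives about 1 in 20, and the share here was 5.23%. Of the 9, 6 fell on the same library, diabetic adductor 1. In that library Psma7 was at 158 RPKM (others 48.8 to 82.1), Psmb1 at 156 (57.0 to 82.2), Psmb5 at 205 (46.4 to 102) and Psmb7 at 252 (117 to 149). There Psmc1 was at 99.2 (37.9 to 57.5) and Psmd13 at 66.4 (24.4 to 37.0). Psme4 was high in diabetic adductor 4, at 58.5 RPKM (32.4 to 41.3 in the others). Psma7 was low in control gastrocnemius 3, at 60.9 RPKM (83.9 to 97.4), and Psmd11 in diabetic gastrocnemius 6, at 24.7 (42.9 to 51.6). Diabetic gastrocnemius 6 is in the second library set, where Psmd11 had 28.7, 25.5 and 25.3 RPKM in the control gastrocnemius libraries. Diabetic gastrocnemius 5 of that set had 45.5, so the value of 24.7 lies near its set's controls. Without diabetic adductor 4, Psme4 stayed lower in gastrocnemius.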

How the results depend on the processing

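Between control mouse muscles 25 members were called, and the count became 7, all of them lower, with median-of-ratios scaling. Chosen after seeing the data, that scaling gave 14 with terms for the library set, 4 in the first set and 12 in the second. In diabetic mice 12 were called, and 23 in the second set alone and 25 with the sample number as a block. Added fits gave 24 with set terms and median-of-ratios scaling and 21 in the first set with that scaling. Without diabetic adductor 1 they gave 21 in the first set and 25 with set terms. Leaving out 1 library gave 17 to 27 calls in control mice, 10 to 16 in diabetic mice and 0 to 0 in each diabetes comparison. Except where given above, no share of all genes stands beside these counts, and they join both directions. They describe the settings and are not read as a result about the members. The block moved no other count by over 1.5 times and, beside the differences given with it above, changed no other call of a described gene, and pseudocounts, the filter, voom and summed transcripts moved none so far. Log2 differences turned negative with median-of-ratios scaling in control mice for Psme1 (-0.027), Psme3 (-0.14), Psmf1 (-0.041), Psmb4 (-0.062), Psmd8 (-0.16), Psmd9 (-0.054), Psmb5 (-0.096), Psmb6 (-0.097), Psmd4 (-0.48), Psmd11 (-0.57) and Psmd14 (-0.28). They did so in diabetic mice for Psmd5 (-0.063), Psmb4 (-0.28), Psmd8 (-0.32), Psmf1 (-0.12), Psmb5 (-0.22), Psmb6 (-0.17), Psmc4 (-0.29) and Psme3 (-0.30). With set terms Psmd11 was at -0.0046 in control mice, and in the second set alone Psmd4 and Psmd11 were at 0.54 and 0.59 in diabetic mice. The scaling sets the median gene near 0 by construction, and for the other settings the cause was not tested. The scarce members rest on few reads, and an error in the counts of members with shared sequence is not covered by any of these settings.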
